A study of Mus musculus with 4 samples.

Results

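Tcstv1, Tcstv3, AF067061, Gm20767, BC147527 and D13Ertd608e are related genes that lie together near the end of mouse chromosome 13. On the array they are read by 7 probes, 2 of them for AF067061 and 1 for each other gene, out of 39429 non-control probes that carry 30199 gene names. The 6 genes were taken by name, but they had been chosen by their rise after Rif1 siRNA over control siRNA on these same arrays, so their rise against control siRNA is given as a description and not as a test. E14tg2a cells, a feeder-free mouse embryonic stem (ES) cell line kept in serum and LIF, were either left untreated or transfected with siRNA. Cells given control siRNA were harvested at 72 h, and those given siRNA against Rif1 (2 siRNAs together, per the methods) at 48 h or 72 h. The title of the untreated sample gives no harvest time. RIF1 is a regulator of DNA replication timing, and the study asked how genes of the 2-cell (2C) embryo respond when it is depleted in ES cells. Each condition was measured on 1 one-color Agilent array of total RNA, and the 4 arrays lay on 1 slide.

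Tcstv stands for 2-cell-stage, variable group. Genes of this kind are switched on in the mouse embryo when its own genome is first transcribed, and are then silenced. In cultures of ES cells a small, changing minority of cells enters a 2C-like state in which Tcstv genes, Zscan4 genes and other genes of the 2C embryo are transcribed. Tcstv1 and Tcstv3 have been studied for a role in telomere maintenance. D13Ertd608e is listed by RefSeq as a transcript that does not code for a protein, and the other 5 genes as protein coding.

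Because the genes resemble each other, the sequences read by the probes decide what each value can be assigned to. The probes are 60 bases long, and stretches of at most 30 bases are shown as the array files give them, 5′ to 3′. In the first set, chosen because 4 of the 7 probes hold it, the word in capitals is common to the probes of AF067061, Gm20767, BC147527 and D13Ertd608e and to a probe without a gene symbol.
AF067061 A_55_P2056719: CATCTGGgttttggttgtgtttgtttattt
Gm20767 A_55_P1982638: CATCTGGgttttggttgtgtttgtttattt
BC147527 A_55_P2034928: CATCTGGtttgtgtttgtttgtttgtttgt
A_55_P2081432, no symbol: CATCTGGtttgtgtttgtttgtttgtttac
D13Ertd608e A_55_P2216976: CATCTGGtgtttgtttgcagctttcttaat

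The second set shows the other AF067061 probe beside the Tcstv1 probe, which read like stretches of their transcripts. Capitals mark the 4 positions of the 30 where these stretches differ.
Tcstv1 A_51_P481768: AGgcaaagaTcaaagccaCtgctctgagga
AF067061 A_55_P2182902: CAgcaaagaGcaaagccaTtgctctgagga

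A probe without a symbol shares with this AF067061 probe a run of 22 bases that begins within the stretch above and goes on past it. The Tcstv3 probe is shown last, because no run of over 8 bases in it recurs in any of the other probes shown.
A_55_P2143081, no symbol: ctctgaggatggctggattgcc
Tcstv3 A_51_P143200: cttcaaagagcttttcgccagaagtgagaa

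The longest exact run between the AF067061 A_55_P2056719 and Gm20767 probes was 30 bases. It was 17 bases between the Gm20767 and BC147527 probes and 14 bases between AF067061 A_55_P2056719 and D13Ertd608e. Probe A_55_P2081432, which the files place on mm9 chr5, shared 39 bases with the BC147527 probe. The 2 probes of AF067061 had no run of over 6 bases in common, and thus read different parts of the transcript. The array's own annotation assigns AF067061 A_55_P2182902 to transcripts of Tcstv3 and Gm20767 as well as of AF067061. Values of single genes are therefore uncertain wherever a transcript of a relative can bind the same probe, which was not measured here.

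**Figure D1:**
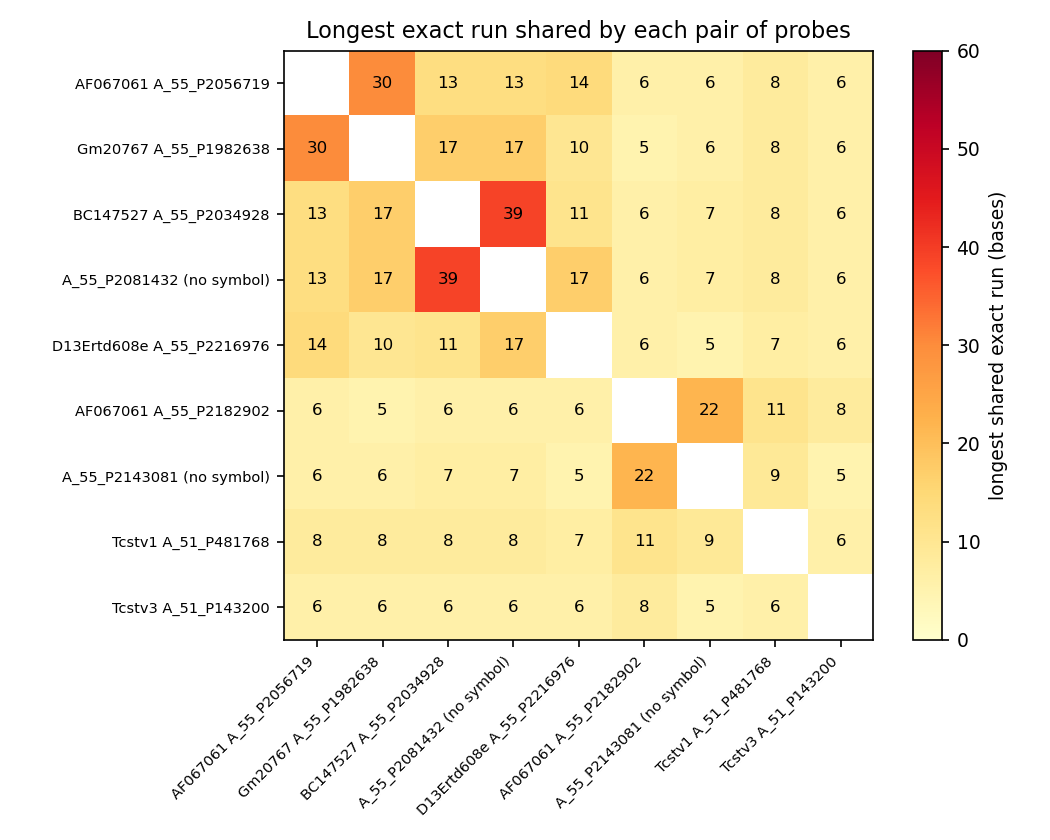
Longest exact run of bases shared by each pair of probes, in bases, for the 7 probes of the 6 genes and 2 probes without a symbol that share at least 20 bases with one of them. The largest values are 39 bases for BC147527 and A_55_P2081432, 30 for AF067061 A_55_P2056719 and Gm20767, and 22 for AF067061 A_55_P2182902 and A_55_P2143081.

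The files place 3 of the 7 probes on the mm9 assembly, all on chrUn_random, a join of contigs that had no place on a chromosome in that build. The Tcstv3 probe is listed from base 3264 down to 3205, AF067061 A_55_P2182902 from 3610 down to 3551 and the BC147527 probe from 12563 down to 12504. The other 4 probes are listed as unmapped. In the later GRCm38.p6 assembly, RefSeq places all 6 genes on chromosome 13. Whether a probe lies in an exon's coding part or in an untranslated part was not determined here.

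Rif1 itself was read by 1 probe, A_55_P2015964. Levels are given throughout as the ratio of a probe's signal to the 75th percentile of its array, so a level of 1 is the 75th percentile itself. Rif1 stood at 5.55 on the untreated array, at 5.42 on the control siRNA array, and at 2.15 and 4.15 on the 48 h and 72 h arrays of Rif1 siRNA. Rif1 RNA was thus 0.396 times the control level at 48 h and 0.765 times at 72 h, lower than both control arrays each time.

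All 7 probes were well above background on all 4 arrays, none was saturated and none was an outlier spot. The error that the scanning software assigned to their signals was 10% to 19.2% of the signal. The share of all probes well above background was between 58.2% and 73.5% on the 4 arrays, lowest in untreated cells and highest at 72 h of Rif1 siRNA. With 1 array per condition there is no replicate error and no p-value. As a measure of scatter, the log2 difference between control siRNA and untreated cells had an SD of 0.26 over the 22548 probes measured above background in both conditions. Spots of one probe repeated within an array had a median SD between 0.059 and 0.063.

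Tcstv1 stood at 0.0818 on the untreated array, at 0.151 on the control siRNA array, and at 3.20 and 3.77 on the 48 h and 72 h arrays of Rif1 siRNA. It was 25.0-fold higher at 72 h than with control siRNA, a log2 difference of 4.64, and 21.2-fold higher at 48 h. Both Rif1 siRNA arrays lay far above both control arrays, with the untreated array lowest.

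Tcstv3 had levels of 0.0393, 0.0838, 2.12 and 2.92 in the same order of arrays. Its log2 difference was 5.12 at 72 h and 4.66 at 48 h against control siRNA, or 34.8-fold and 25.3-fold. With normexp, another background correction, it was 4.44 and 4.00, and its place among the 7 probes moved from the highest to the third at 72 h and the fifth at 48 h. The signal error in untreated cells was 19.2%, the highest among the 28 signals of the 7 probes, and the signal there was 2.67 times the local background. The order of the arrays was that of Tcstv1.

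AF067061, a protein-coding relative of the Tcstv genes, had levels of 4.30, 6.98, 88.2 and 95.2 by probe A_55_P2056719. By its other probe, A_55_P2182902, the levels were 0.264, 0.468, 9.89 and 11.9. The probes ranked the arrays alike but gave different sizes of change. At 72 h the rise over control siRNA was 13.6-fold by the first and 25.4-fold by the second, which is 0.89 apart on the log2 scale, and at 48 h it was 12.6-fold and 21.1-fold.

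Gm20767, whose probe shares the 30-base run printed above with AF067061 A_55_P2056719, had levels of 2.78, 4.72, 71.4 and 84.7. Its rise over control siRNA was 17.9-fold at 72 h and 15.1-fold at 48 h. With this overlap in sequence, these values and those of AF067061 A_55_P2056719 may not be independent of each other, which was not tested.

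BC147527 had levels of 2.51, 3.66, 59.8 and 69.3, and rose 18.9-fold at 72 h and 16.3-fold at 48 h over control siRNA. D13Ertd608e had levels of 0.172, 0.260, 6.33 and 7.77. Its rise was 29.9-fold at 72 h and 24.4-fold at 48 h. For each of the 6 genes the untreated array was lowest, the control array next, and the 72 h array of Rif1 siRNA highest.

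**Figure D2:**
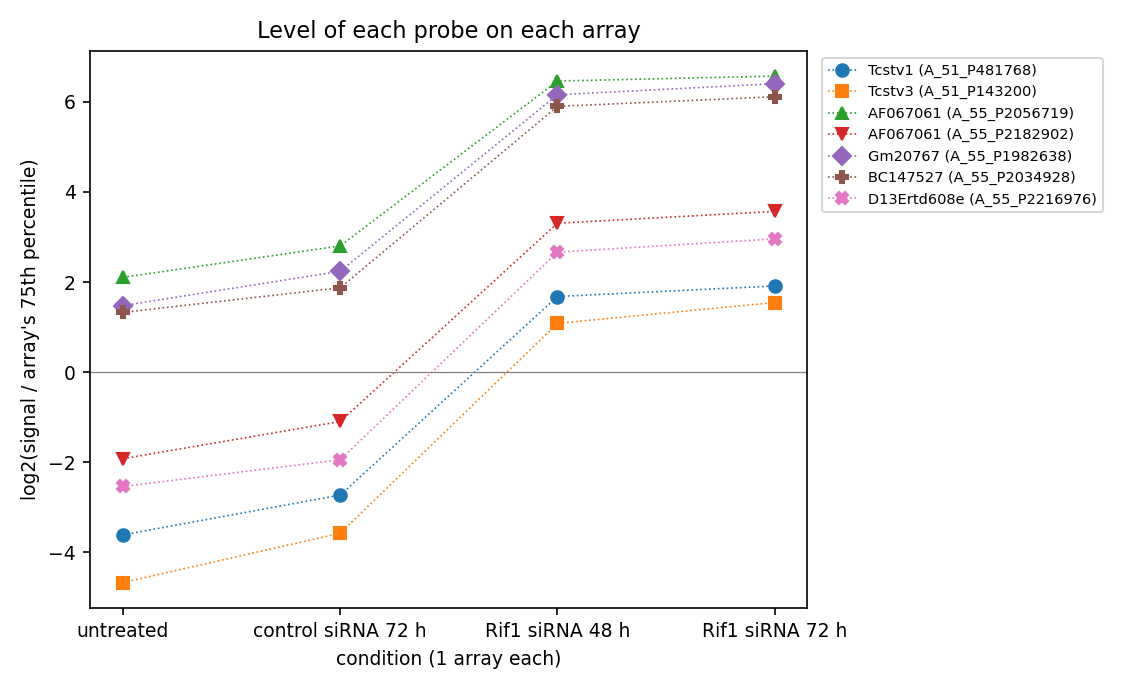
Level of each of the 7 probes on each of the 4 arrays, as log2 of the signal over the array's 75th percentile. Points are single arrays and dotted lines only join points of one probe. On every probe the 2 Rif1 siRNA arrays lie above the control siRNA array by 3.66 to 5.12 log2 units, and the order of the 4 arrays is the same.

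At 72 h of Rif1 siRNA the 7 probes were higher than with control siRNA by a median log2 difference of 4.64, with a range from 3.77 to 5.12. All 7 were over 2-fold higher, where 3.18% of the 26222 probes tested were over 2-fold higher, a count fixed by how the genes had been chosen. The median over all tested probes was -0.05, and 28 probes on the array lay above the median of the 7. At 48 h, the harvest time differs from that of the control array. There the median was 4.40, with a range from 3.66 to 4.66, and again 7 of 7 were over 2-fold higher, with 3.60% of 26204 probes over 2-fold higher. Both comparisons use the same control array. In RNA from whole cultures, more cells that transcribe a gene and more RNA per cell cannot be told apart.

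Against the untreated array in place of control siRNA, the median log2 difference was 5.49 at 72 h and 5.20 at 48 h. The lowest rise of the 7 was then 22.1-fold at 72 h and the highest was 74.3-fold, for AF067061 A_55_P2056719 and Tcstv3.

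**Figure D3:**
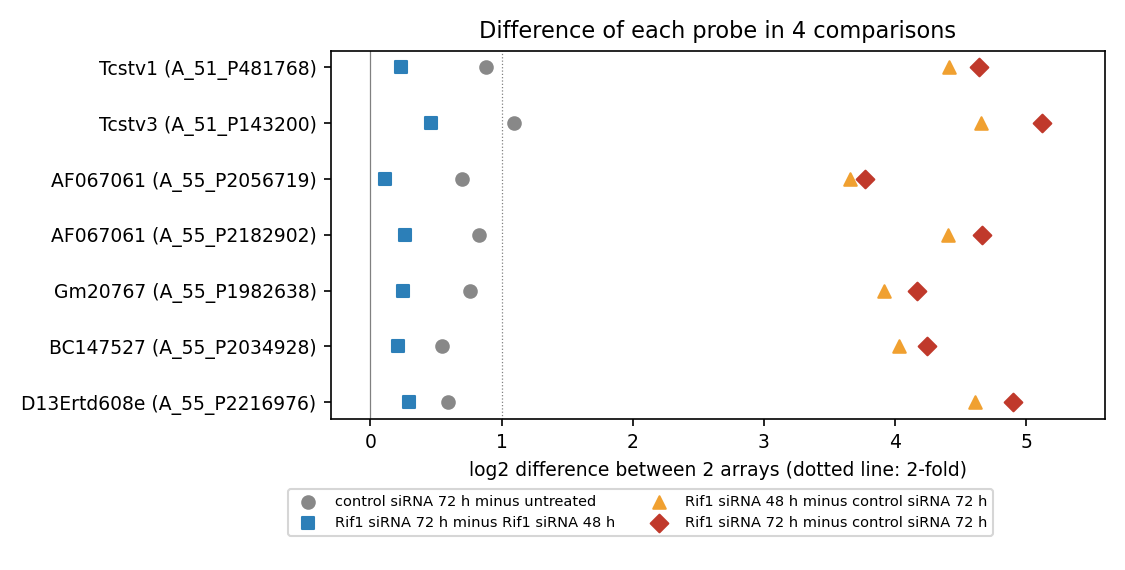
Log2 difference between 2 arrays for each of the 7 probes in 4 comparisons, with 1 array per condition and the 2-fold line dotted. The differences between Rif1 siRNA and control siRNA lie from 3.66 to 5.12, those between control siRNA and untreated cells from 0.55 to 1.09, and those between the 2 times of Rif1 siRNA from 0.11 to 0.46.

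The comparison of control siRNA with untreated cells asks what transfection, and any difference in time of culture, did without loss of Rif1. It was not used to choose the genes. The 7 probes were 1.46-fold to 2.14-fold higher with control siRNA, with a median log2 difference of 0.76. BC147527 differed least, with a log2 difference of 0.55, and D13Ertd608e by 0.59. The 2 AF067061 probes gave 0.70 and 0.83, Gm20767 gave 0.76 and Tcstv1 gave 0.88. All 7 were higher, while 47.6% of the probes well above background on both arrays were higher by any amount. Over all tested probes, 373 had a difference above the median of the 7. Only Tcstv3 was over 2-fold higher, at 2.14-fold, so that 1 of 7 passed this limit, with 0.966% of 24011 tested probes passing it. Tcstv3 fell below 2-fold, to a log2 difference of 0.60, with another background correction. Since all the probes were measured on the same arrays and some share sequence, the 7 are not 7 independent observations, and transfection and time in culture cannot be told apart.

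**Figure D4:**
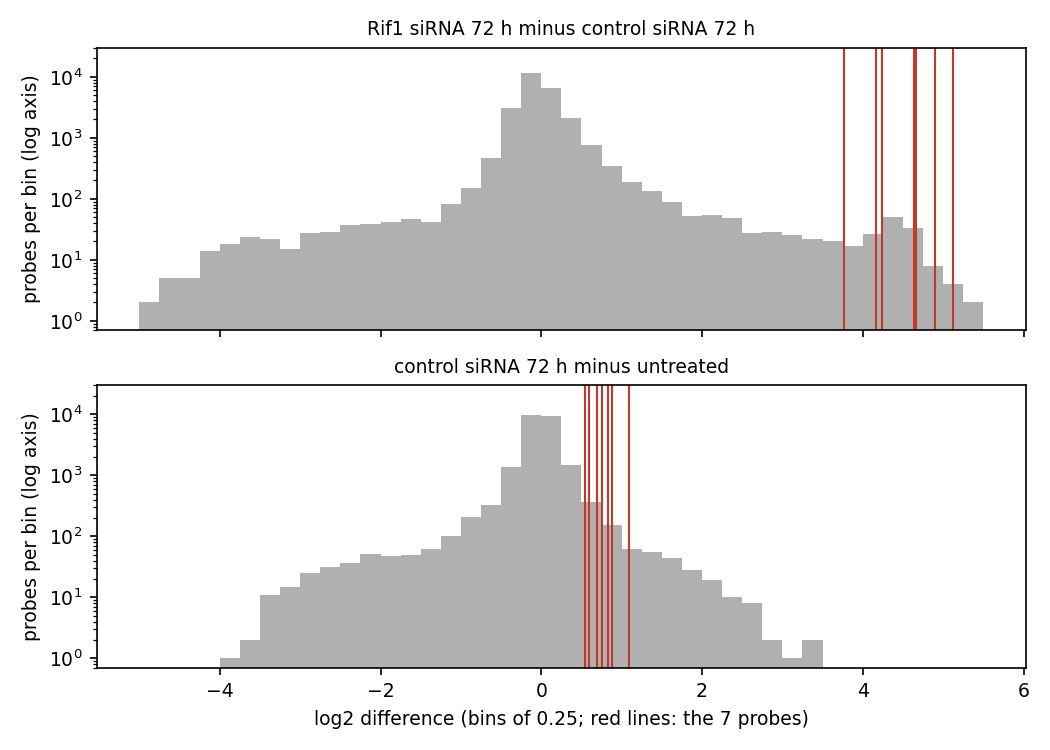
Number of probes per bin of 0.25 log2 units on a log axis, for Rif1 siRNA 72 h minus control siRNA 72 h (upper) and control siRNA 72 h minus untreated (lower), with the 7 probes as red lines. In the upper plot the 7 probes lie between 3.77 and 5.12 and in the lower between 0.55 and 1.09, to the right of most probes in both.

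Between 48 h and 72 h of Rif1 siRNA the 7 probes differed less than they did between control siRNA and Rif1 siRNA. The log2 difference of 72 h minus 48 h was 0.11 and 0.26 for the AF067061 probes, 0.21 for BC147527, 0.23 for Tcstv1, 0.25 for Gm20767, 0.30 for D13Ertd608e and 0.46 for Tcstv3. The median was 0.25. Of all tested probes, 74.3% lay below the smallest of these differences and 95.6% below the largest. All 7 were higher at 72 h, where 48.8% of probes were, and 0 of 7 were over 2-fold higher, where 0.991% of 29148 tested probes were. Over the same interval the Rif1 probe was higher by 0.95 on the log2 scale, from 2.15 to 4.15.

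The 2 probes without a symbol that share at least 20 bases with one of the 7 behaved alike. A_55_P2081432, which shares 39 bases with BC147527, had levels of 1.28, 2.21, 41.5 and 47.3, a 21.4-fold rise at 72 h over control siRNA. A_55_P2143081, on chrUn_random, had levels of 0.874, 1.54, 31.0 and 34.7, a 22.5-fold rise. By contrast, 18 other probes shared with one of the 7 little more than a repeat of G and T, over 16 bases or more. Among these, which include probes of Nuak2, Fgfr1 and Prdm1, the 17 with a fold at 72 h had log2 differences from -0.24 to 0.76 and 0 were over 2-fold higher, beside 3.18% of all probes tested. The part of the repeat in the values of the 7 probes was not tested.

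In the RefSeq order of GRCm38.p6, the 6 genes stand among 31 genes and pseudogenes from AF067063 to the last gene of chromosome 13 in the table, of which 8 have a probe that could be matched. The 2 of these 8 outside the 6 genes were AF067063, with levels of 0.269, 0.255, 1.08 and 1.24, and B020031M17Rik, with levels of 0.561, 0.598, 5.34 and 5.22. AF067063 was 4.87-fold and B020031M17Rik 8.73-fold higher at 72 h than with control siRNA, less than any of the 7 probes. Their log2 differences between control siRNA and untreated cells were -0.08 and 0.09, below the lowest of the 7 probes.

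The 9 genes with probes that precede AF067063, from Nnt (the mitochondrial transhydrogenase) through Paip1, Tmem267 and Hmgcs1 to Zfp131, were read by 17 probes, of which 13 had a fold at 72 h. Among these, 0 were over 2-fold higher, beside 3.18% of all probes tested. Their log2 differences against control siRNA ran from -2.70 to 0.68, the latter a lower bound for a dim probe of Nnt, and 1 Tmem267 probe also had only a lower bound. The lowest value, of Hmgcs1 A_55_P1954569, came from the control array, where its level was 0.0891 against 0.0104, 0.0141 and 0.0137 on the untreated, 48 h and 72 h arrays. The other probe of Hmgcs1, an enzyme of cholesterol synthesis, had a log2 difference of -0.16.

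**Figure D5:**
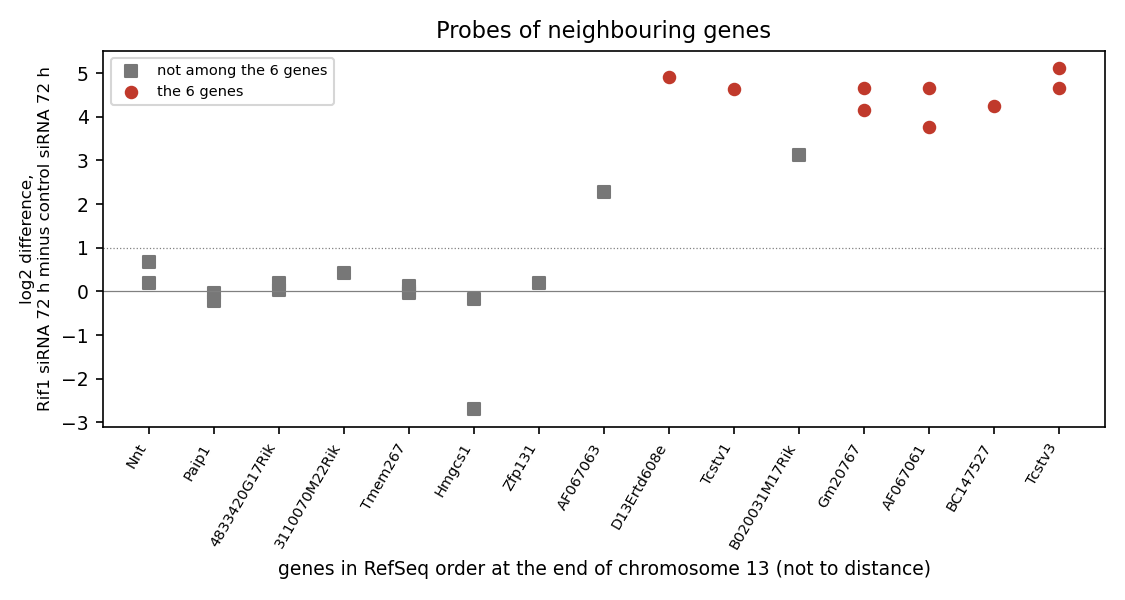
Log2 difference between Rif1 siRNA 72 h and control siRNA 72 h for probes of genes at the end of chromosome 13, in RefSeq order and not to distance. One point is 1 probe and A_55_P2182902 is drawn under each of its 3 genes. From Nnt to Zfp131 no point is above 0.68, AF067063 is at 2.28, B020031M17Rik is at 3.13 and the 6 genes lie at 3.77 or higher.

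Within 500 kb of the 3 placed probes on chrUn_random, 8 other probes are listed. Besides AF067063 and A_55_P2143081, these are TC1593528, an expressed sequence cluster that was 18.2-fold higher at 72 h than with control siRNA, and NAP112345-1, which was 4.27-fold higher. Gm3940 and BC085271 are on the same join of contigs, and each of their 2 probes had log2 differences between -0.29 and -0.17. Distances on chrUn_random are not distances in the genome.

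The 10 other probes closest to the 6 genes in pattern were found from the 4 log2 levels of each of 22518 probes, centred on their own mean, by their Euclidean distance from the mean profile of the 7 probes. They lay at distances of 0.031 to 0.119 log2 units, where the 7 probes themselves lay at 0.193 to 0.732 and the median of all other probes was 4.87. Those with a gene symbol were Gm2022 (distance 0.0852) and Gm4303 (0.107), both of multicopy families known from 2C-like cells, and Gm2016 (0.113). BB287469, BB237529 and BB713741 are expressed sequence tags on mm9 chromosomes 12, 10 and 13, and the rest have no name, among them A_55_P2081432 and A_55_P2143081. Gm2022 A_55_P1983380 had levels of 1.25, 2.24, 40.7 and 46.7 over the 4 arrays. The measure rests on 4 arrays, on which many probes rose together.

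Set beside 3 other families of 2C genes, the rise at 72 h over control siRNA was of like size. The median log2 difference was 4.64 for the 7 probes, 4.30 for 7 probes of the Zscan4 family (SCAN-domain zinc finger proteins that mark the 2C-like state), 4.32 for 7 probes of the Usp17l deubiquitinases and 4.61 for 4 probes of Gm4303, Gm4312 and Gm4340. The ranges overlapped, with Zscan4 probes from 3.71 to 4.59. One Usp17l probe, at 0.44, stood apart from the others of its family, which lay at 3.20 or higher. Between control siRNA and untreated cells the medians were 0.76 for the 7 probes, 1.11 for Zscan4, at least 0.49 for Usp17l (its middle probe has only a lower bound) and 0.75 for the Gm4303 group. There the Zscan4 probes ranged from 0.99 to 1.21 and 6 of 7 were over 2-fold higher, beside 1 of 7 for the Tcstv genes and relatives. For Usp17l, with 2 of its probes dim in untreated cells, the range was -0.34 to at least 1.55 with 3 of 7 over 2-fold higher, and for the Gm4303 group 0.64 to 0.87 with 0 of 4. Over all probes, 0.966% were over 2-fold higher in this comparison. These differences between families could not be tested with 1 array per condition.

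Of a wider list of 41 genes of the 2C embryo, 31 were on the array with 53 probes, of which 51 had a fold at 72 h against control siRNA and 45 were over 2-fold higher, with 3.18% of all probes so. Some of the 51, among them probes of Tdpoz3, Tdpoz4, Obox1 and Obox3, were dim with control siRNA and had only a lower bound. By the rule used, a probe dim there was given a fold only if it was higher with Rif1 siRNA. Such probes could thus add to the rises but not to the falls. The 3.18% of all probes also includes lower bounds. The median log2 difference of the list, with lower bounds taken as values, was 4.22. This list too was drawn up with these results known. Tmem92, a transmembrane protein gene, was 23.1-fold higher and Gm13043 20.4-fold. Of the 2 probes of Dux, the transcription factor that can switch on the 2C program, 1 was dim with control siRNA and at least 2.38-fold higher at 72 h, and the other was 1.30-fold higher. For Zfp352, a zinc finger gene of the 2C embryo, 1 probe was at least 20.4-fold higher and the other 1.09-fold.

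Of 13 regulators of 2C genes with 19 probes tested, among them the demethylase Kdm1a, the chromatin assembly factor subunits Chaf1a and Chaf1b and the corepressor Trim28, 0 probes were over 2-fold higher or lower at 72 h, beside 4.89% of all probes tested. Their log2 differences against control siRNA ran from -0.33 to 0.59, and the highest was that of Dppa2, an activator of the 2C program, on its probe A_55_P2059730.

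Of 13 probes for 8 ES cell markers, 12 were well above background on all 4 arrays. Pou5f1 had levels from 10.7 to 17.4, Zfp42 from 37.6 to 39.6 and Sox2 from 5.71 to 5.76 over the 4 arrays, while Dppa3 lay from 0.568 to 0.750 and 1 of the 3 Nanog probes, A_55_P2007699, was not well above background on every array. Between Rif1 siRNA at 72 h and control siRNA, 0 of the 13 differed over 2-fold in either direction, beside 4.89% of all probes. Their median log2 difference was 0.09, with a range from -0.69 for the dim Nanog probe to 0.59 for Pou5f1. Nanog A_55_P2007703 was 1.37-fold and Nanog A_55_P2007708 1.22-fold higher. Among the trophoblast markers, 2 of 4 tested probes were over 2-fold higher at 72 h than with control siRNA, and 1 of 4 at 48 h, beside 3.18% and 3.60% of all probes. Cdx2 had levels of 0.0344, 0.0500, 0.0721 and 0.106 over the 4 arrays, and was 2.11-fold higher at 72 h. Gata3 had levels of 0.0674, 0.0518, 0.186 and 0.148, and was 2.86-fold higher at 72 h. Cdx2 ranked the 4 arrays in the same order as the 7 probes. Unlike the 7 probes, Gata3 was lower with control siRNA than in untreated cells and lower at 72 h than at 48 h. Elf5 was well above background only with Rif1 siRNA and was given no fold at 72 h. Its levels of 0.0112 at 48 h and 0.00976 at 72 h were too low to be called on the other arrays. The lowest level well above background was 0.0159 with control siRNA and 0.0236 in untreated cells. The summed level of all 6 trophoblast probes was 3.88, 4.32, 3.87 and 4.12 over the 4 arrays, most of it from Tfap2c. Of the markers of primitive endoderm (5 probes), fibroblasts (4) and neural cells (3 tested of 6), 0 were over 2-fold higher at 72 h. All 4 fibroblast probes were nonetheless higher than with control siRNA at both times, where the median log2 difference over all tested probes was -0.05 each time. At 72 h Col1a2 was 1.77-fold higher, Col1a1 1.76-fold, Dcn 1.57-fold and Thy1 1.04-fold. Their summed level was 4.20, 3.79, 4.41 and 4.43 over the 4 arrays, most of it from Thy1. All 5 primitive endoderm probes were lower at 72 h than with control siRNA, with log2 differences from -0.34 to -0.16, beside a median of -0.05 over all tested probes. At 48 h the 5 probes ran from -0.22 to 0.50 with a median of -0.01, and the Sox17 probes were at 0.50 and 0.24. With control siRNA all 5 were lower than in untreated cells, with log2 differences from -0.72 to -0.18. The part of the trophoblast and fibroblast genes in the result was not tested.

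Sequence around the start of transcription was at hand for 2 of the 6 genes, AF067061 and BC147527, as RefSeq windows of GRCm38.p6 from 250 bases before to 50 bases after the start. They were searched on both strands for the TATA box word TATAAA and its variant TATATAA. The other words searched were CCAAT for the CCAAT box, GATTNAATC as the core of the motif known for Dux, and TGCACAC as a motif known for Zscan4. The AF067061 window held TATATAA, with its first base 58 bases before the start, and GATTNAATC 125 bases before it. Each is shown within 30 bases of the plus strand, with the match in capitals.
chr13:120263027-120263056: gctggaggccTATATAAgaacagggaggaa
chr13:120262960-120262989: aagacactaaGATTTAATCcagacattgag

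Of all 32851 promoter windows in the table, 3.24% held TATATAA, 0.268% held GATTNAATC, 13.6% held TATAAA, 37.4% held CCAAT and 4.40% held TGCACAC. None of the 5 words was in the BC147527 window. A match is a run of letters and not evidence of binding.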

How the data were processed

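The authors hybridised Cy3-labeled cRNA to mouse 4x44K v2 arrays and deposited the output of Agilent Feature Extraction 11.5.1.1 (default parameters), in which gProcessedSignal is an intensity, background-subtracted and detrended within each array. The authors also deposited a table of each signal as a ratio to about the 75th percentile of its array. From these, log2 of the intensity over the 75th percentile of 43020 non-control spots was computed per array (75th percentiles of 1487, 1513, 1610 and 1605 in the order untreated, control siRNA, Rif1 siRNA 48 h and 72 h). Outlier spots (120 to 152) were left out and 0 spots were saturated. A probe dim on one array has a lower bound, and no fold if dim on both or if the bound is under 1. For the dim array the bound takes the probe's own level or the lowest level well above background there, whichever is higher. Python 3.11.15, pandas 2.3.3, numpy 2.4.6, R 4.3.3 and limma 3.58.1 were used, and the difference and call rule was tested on simulated data.

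The genes and lists were chosen with earlier results of these data known. Named besides the 6 genes were Rif1, the 10 probes nearest in profile, probes within 500 kb on the same mm9 sequence, 3 other families, the listed 2C genes (values for at most 6) and regulators, and markers. The neighbours in RefSeq order, the probes that share sequence and the single probes that stand apart were chosen after their values were seen. RefSeq gives names, order and promoter sequence (GRCm38.p6), with no coordinate carried between builds. Alternatives were normexp (with an offset of 50), no detrending, quantile normalization, other percentile probes and the deposited ratios. Further ones were outliers kept, dim signals as given, the untreated array as control and a 4-fold limit. A second experiment that the methods mention was not analysed here.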

Additional observations from a re-analysis of the deposited data

How the results depend on the processing

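The medians and counts of the 7 probes were recomputed under each alternative that applied, which gave 60 values, and 54 of these stayed within the limit set (1.5 times for a count, 0.26 log2 units for a median, the SD of control siRNA minus untreated over probes). None changed direction. Much of this tally was fixed beforehand and is no measure of robustness. None of the 7 probes was dim or an outlier spot on any array. Keeping outliers and taking dim signals as given could therefore not change a value. The deposited ratios scale the same signals by about the same percentile. The counts of 7 of 7 against control siRNA followed from how the genes had been chosen. With normexp background correction the median log2 difference was 4.29 at 72 h and 4.02 at 48 h against control siRNA, and with the untreated array as control 5.49 and 5.20. The count over 2-fold higher with control siRNA against untreated was 0 of 7 with normexp and 0 of 7 at a 4-fold limit, since Tcstv3 alone had passed. Against control siRNA, 7 of 7 remained over 2-fold higher under each alternative, 4-fold included, at both times. With 1 value per gene, chosen after seeing the data, the medians were 4.44, 4.22, 0.76 and 0.24 for 72 h and 48 h against control siRNA, control siRNA against untreated, and 72 h against 48 h. Over all probes, normexp lowered the count over 2-fold higher from 833 to 427 at 72 h, from 943 to 461 at 48 h, from 232 to 125 for control siRNA against untreated, and from 289 to 56 for 72 h against 48 h, and it shifted the median of all probes at 72 h to -0.11. The normexp setting used here adds an offset of 50 to every signal. By its arithmetic this shrinks the log2 differences of dim probes most. How much of these changes came from the offset was not tested.

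No paired analysis was possible because no condition holds replicates to pair, and leaving out an array would remove its condition. Precision is limited most for Tcstv3 and Tcstv1, whose signals in untreated cells were 2.67 and 5.88 times the local background.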

Other observations

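Outside the 6 genes, 34 probes are placed on chrUn_random of mm9. Of these, 25 had a fold at 72 h of Rif1 siRNA against control siRNA, and 11 were over 2-fold higher, which is 44%, beside 3.18% of all probes tested. Besides those given above they include LOC620551, with levels of 0.131 on the untreated array, 0.313 on the control siRNA array, and 6.70 and 6.77 on the 48 h and 72 h arrays of Rif1 siRNA, a 21.7-fold rise at 72 h over control siRNA. AA792892 had levels of 0.0173, 0.0595, 1.40 and 1.27, a 21.3-fold rise. Gm16367 was 18.9-fold and A_55_P2001208 23.6-fold higher. In each of these 4 probes both Rif1 siRNA arrays lay above both others. They were picked after their values were seen, and chrUn_random joins contigs from several places.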
